A study of Mus musculus with 6 samples.

Results

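Ankrd1, Ankrd2, Csrp3, Xirp1, Tnfrsf12a, Alpk2 and Smtnl1 are 7 genes linked to skeletal muscle or to its response to load or injury. They are described here, as muscle stress genes, in mouse skin on all 6 arrays of the study. The name is a label for the list, since Tnfrsf12a is not confined to muscle and Smtnl1 had another order of arrays than the rest. The list was chosen by measured values of these same arrays, namely by how far the genes lay below PBS local skin under TSLP, under IL-13 or in PBS distal skin. Those differences are therefore given as a description, with no test, and support nothing by themselves. The 7 genes are represented by 9 probe sets among 22690 on the array, and they are 7 of the 12393 genes named by a single symbol. Ankrd1 and Tnfrsf12a have 2 probe sets each.

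The mice, all of strain C57BL/6, had a pump under the skin for 7 days. Skin at the pump outlet was taken from 2 mice given TGF-beta, and 1 array each came from outlet skin under IL-13, under TSLP and under PBS (PBS local). The remaining array came from abdominal skin of a PBS pump carrier, far from the outlet (PBS distal). The labels give no age, sex or cytokine dose and do not state if 1 animal gave both PBS pieces. PBS distal skin differs from PBS local skin both in its distance from the pump and in body site, and these cannot be told apart. A piece of whole skin holds many cell types, and in such bulk RNA fewer cells of a type and less RNA per cell cannot be told apart.

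Mouse skin carries a thin sheet of skeletal muscle, the panniculus carnosus, beneath the dermis and fat. Ankrd1 and Ankrd2 are muscle ankyrin repeat proteins that bind the elastic I-band region of titin and can move to the nucleus, and both are known to be induced when muscle is stretched or injured. Csrp3, the muscle LIM protein of the Z-disc, and Xirp1, the actin-binding Xin repeat protein of muscle junctions and damaged myofibrils, belong to the same structural setting. Tnfrsf12a encodes Fn14, the receptor of the cytokine TWEAK, which many cell types raise after injury. Alpk2 encodes an alpha kinase of heart and skeletal muscle. Smtnl1 encodes a smoothelin-like protein that acts on myosin phosphatase and is phosphorylated by cyclic nucleotide-dependent kinases.

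The RefSeq promoter table of the assembly GRCm38.p6 held an entry for 5 of the 7 genes, in 6 promoters, and each spans 250 bases before the gene's start to 50 bases from it. Sequences of 3 are shown, those of Ankrd1, which had the largest differences between arrays, of its relative Ankrd2, and of Smtnl1, which had another order of arrays than the rest. They are written 5′ to 3′ on the gene's strand, and capitals mark the letters GGAATG, the core of the MCAT element bound by TEAD factors. The Ankrd1 promoter lies at chr19:36119795-36120094 on the minus strand, the Ankrd2 promoter at chr19:42035777-42036076 on the plus strand, and the Smtnl1 promoter at chr2:84822603-84822902 on the minus strand.
Ankrd1: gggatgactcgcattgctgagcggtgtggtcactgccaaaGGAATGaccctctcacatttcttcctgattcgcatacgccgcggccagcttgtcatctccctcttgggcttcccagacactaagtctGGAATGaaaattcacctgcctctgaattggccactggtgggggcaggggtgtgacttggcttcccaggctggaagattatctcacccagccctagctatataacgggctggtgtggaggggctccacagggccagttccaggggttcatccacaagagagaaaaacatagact
Ankrd2: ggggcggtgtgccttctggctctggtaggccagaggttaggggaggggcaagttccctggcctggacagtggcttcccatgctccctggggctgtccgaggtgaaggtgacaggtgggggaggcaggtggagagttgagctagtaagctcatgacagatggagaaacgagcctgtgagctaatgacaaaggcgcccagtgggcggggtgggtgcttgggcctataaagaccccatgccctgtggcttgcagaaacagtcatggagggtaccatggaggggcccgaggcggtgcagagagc
Smtnl1: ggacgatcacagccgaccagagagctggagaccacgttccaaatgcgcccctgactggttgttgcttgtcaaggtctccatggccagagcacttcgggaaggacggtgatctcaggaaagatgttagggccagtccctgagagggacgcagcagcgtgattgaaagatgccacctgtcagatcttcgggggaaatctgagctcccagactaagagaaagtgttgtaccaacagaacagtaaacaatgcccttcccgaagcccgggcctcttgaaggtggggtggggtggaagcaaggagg

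Searched on both strands, GGAATG occurred 2 times in the Ankrd1 promoter, at positions -210 to -205 and -123 to -118 from the start, and in none of the other 5 promoters. Of all 32851 promoters in the table, 14.7% held it at least 1 time and 1.36% at least 2 times. The E-box form CAGCTG, the CArG box of serum response factor and the MEF2 box were found in none of the 6, and in 16.3%, 1.63% and 3.19% of all promoters. Other forms of the E-box were not searched. A match is a description of letters in this window only.

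The values are MAS5 signals, linear brightness values per probe set that the submitters had already brought to a common scale. Differences are given in log2(signal + 27.4), and the added 27.4 makes differences of dim genes smaller than they would be in the raw signal. A gene entered a comparison when at least 1 compared array reached 165, the median over all probe sets and arrays. All 7 genes entered every comparison, and 4 of them (Ankrd2, Csrp3, Tnfrsf12a and Smtnl1) were above 165 on all 6 arrays, whereas Ankrd1, Xirp1 and Alpk2 were below it in PBS distal skin alone. With 1 array in every group but TGF-beta, a difference was counted when it reached 2-fold, that is 1 on the log2 scale. Levels of different probe sets are not compared with each other.

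The skin label was checked against keratinocyte markers, and 7 of the 7 on the array lay above 165, with summed signals between 45822 and 70777. Heart muscle markers (Myh6, Myl7, Nppa, Myl2 and Ryr2) were dim in every array, with 0 of 5 at or above 165 and summed signals between 48.0 and 85.6, none of them at 0. Markers of mature skeletal muscle fibre were bright throughout, and all 23 on the array passed. Their summed signals were 190208 and 132465 in TGF-beta mice 1 and 2, 145697 under IL-13, 149451 under TSLP, 177571 in PBS local skin and 194470 in PBS distal skin.

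Ankrd1 had signals of 3079 and 2431 in TGF-beta mice 1 and 2, 3009 under IL-13, 421 under TSLP, 4227 in PBS local skin and 75.7 in PBS distal skin. The outlet arrays other than TSLP thus lay between 2431 and 4227, the TSLP array stood far below them and the distal array lower still. Its second probe set gave 2666 and 1430 in the TGF-beta mice, 2358 under IL-13, 331 under TSLP, 3520 in PBS local skin and 59.3 in PBS distal skin, in the same order of arrays. Ankrd2 had signals of 3007 and 1492 in the TGF-beta mice, 1980 under IL-13, 1582 under TSLP, 4160 in PBS local skin and 229.8 in PBS distal skin. Unlike its relative Ankrd1, it did not set TSLP skin apart, since the TSLP value lay between those of the 2 TGF-beta mice.

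Csrp3 was bright in every array, with signals of 15108 and 9322 in the TGF-beta mice, 11600 under IL-13, 7858 under TSLP, 12782 in PBS local skin and 3245 in PBS distal skin. It was the one gene of the 7 whose PBS local value lay between those of the TGF-beta mice. Xirp1 had signals of 835 and 496 in the TGF-beta mice, 661 under IL-13, 306 under TSLP, 1199 in PBS local skin and 107.6 in PBS distal skin. Alpk2 had signals of 367 and 268.5 in the TGF-beta mice, 325 under IL-13, 193 under TSLP, 665 in PBS local skin and 135 in PBS distal skin. Xirp1 and Alpk2 had the order of arrays of Ankrd1, with PBS local highest, then TGF-beta mouse 1, IL-13, TGF-beta mouse 2, TSLP and PBS distal.

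Tnfrsf12a had signals of 1077 and 705 in the TGF-beta mice, 947 under IL-13, 305 under TSLP, 1320 in PBS local skin and 390.2 in PBS distal skin. Here TSLP skin, and not PBS distal skin, was lowest. The second Tnfrsf12a probe set, of a design that can bind related transcripts, gave 884 and 585 in the TGF-beta mice, 819.8 under IL-13, 412 under TSLP, 1313 in PBS local skin and 379.6 in PBS distal skin. In it PBS distal was lowest, so the probe sets differ on which of these arrays lies at the bottom. Smtnl1 had signals of 593 and 260.7 in the TGF-beta mice, 198 under IL-13, 1086 under TSLP, 1103 in PBS local skin and 441 in PBS distal skin. Its TSLP and PBS local values were nearly equal and stood above the other 4 arrays, with IL-13 lowest.

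**Figure D1:**
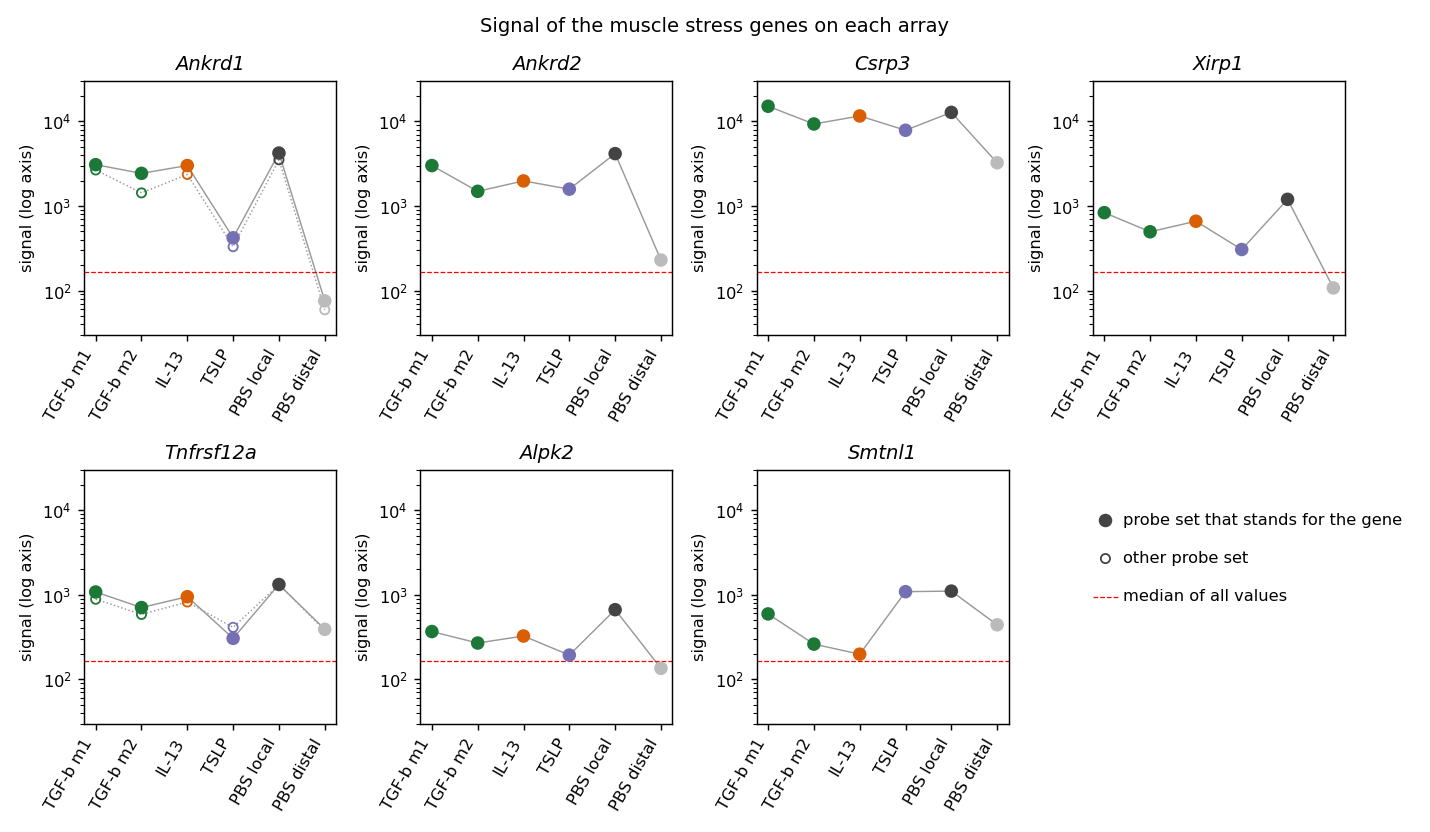
MAS5 signal (log axis) of each of the 7 stress genes on the 6 arrays, 1 panel per gene; filled points are the probe set that stands for the gene, open points its other probe set, and the dashed line is 165. PBS local is highest for 6 of 7 genes, and Smtnl1 is the gene whose TSLP value lies beside PBS local.

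PBS local skin was the highest of the 6 arrays for 6 of the 7 genes, all but Csrp3, whereas 16.4% of all 7945 genes at or above 165 on at least 1 array were highest there. PBS distal skin was the lowest for 5 of the 7, all but Tnfrsf12a and Smtnl1, against 24.9% of all genes. TSLP skin was the lowest of the 5 outlet arrays for 5 of the 7 genes, all but Ankrd2 and Smtnl1, against 17.9% of all genes. These contrasts were among those used to choose the list, so the shares describe it and nothing is read from them. The IL-13 value lay between the values of the 2 TGF-beta mice for 6 of the 7 genes, all but Smtnl1, against 39.8% of all genes. IL-13 and TGF-beta skin therefore did not differ in these 6 genes beyond the spread between the 2 TGF-beta mice. TGF-beta mouse 2 was below mouse 1 for all 7 genes, against 46.7% of all genes, and the summed mature fibre signal was also lower in mouse 2, as given above.

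TGF-beta skin is the one group with more than 1 mouse, and its comparison with PBS local skin asks what the cytokine changed at the outlet. It shares the PBS local array with the differences that chose the list, so its direction is not independent of that choice. Levels of Ankrd1 averaged 2755 ± 458 in TGF-beta skin, against 4227 in PBS local skin (SD, n = 2 and n = 1). Levels of Smtnl1 averaged 427 ± 235 in TGF-beta skin, against 1103 in PBS local skin. Levels of Csrp3 averaged 12215 ± 4091 in TGF-beta skin, against 12782 in PBS local skin. For 6 of the 7 genes both TGF-beta mice lay below PBS local, a pattern shared by 42.4% of all genes tested, and Csrp3 lay above it in mouse 1 and below it in mouse 2. In limma, fitted over all 7741 genes with 1 residual degree of freedom and PBS local assumed to vary like the TGF-beta mice, 0 of the 7 genes passed an adjusted p of 0.05, as did 0% of all genes. At an unadjusted p under 0.05 stood 3 of the 7, Ankrd1, Alpk2 and Smtnl1, against 4.59% of all genes. That count depends on the settings, with 1 of the 7 (Alpk2) when no trend was used or all probe sets were averaged and 5 after quantile normalization.

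The mean log2 difference of TGF-beta minus PBS local was -1.42 for Smtnl1, with a standard error of 0.49 and values of -0.87 in mouse 1 and -1.97 in mouse 2 (limma, adjusted p = 0.864). For Alpk2 it was -1.02 with a standard error of 0.25, and for Ankrd2 it was -0.96 with a standard error of 0.45. None of the 3 was separated from PBS local by the test. The mice differed in size, with values in mice 1 and 2 of -0.46 and -1.46 for Ankrd2, -0.81 and -1.23 for Alpk2, -0.51 and -1.23 for Xirp1, -0.45 and -0.79 for Ankrd1, and -0.29 and -0.88 for Tnfrsf12a. For Xirp1 the mean difference was -0.87 (standard error 0.34), for Ankrd1 -0.62 (standard error 0.21), for Tnfrsf12a -0.58 (standard error 0.29) and for Csrp3 -0.11 (standard error 0.32). The adjusted p in limma was 0.864 for each of the 7 but Csrp3, where it was 0.951. The median over the 7 genes was -0.87, against -0.05 over all genes tested.

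IL-13 and TSLP were each compared with PBS local skin by 1 array, and the cytokine comparisons share that PBS local array. Under IL-13, 2 of the 7 genes were at least 2-fold lower than in PBS local skin, Smtnl1 and Ankrd2, against 0.41% of 7562 genes. The difference of IL-13 minus PBS local was -2.32 for Smtnl1, the lowest of all genes compared. It was -1.06 for Ankrd2, the titin-binding relative of Ankrd1. Alpk2 was just short of the 2-fold limit at -0.97 and past it at -1.02 when 6.21 was added to the signals in place of 27.4 (a lower offset), which makes 3 of the 7. Xirp1 was at -0.83. Ankrd1 (-0.49), Tnfrsf12a (-0.47) and Csrp3 (-0.14) differed less. The median over the 7 genes was -0.83 under IL-13, against -0.07 over all genes.

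Under TSLP, 5 of the 7 genes were at least 2-fold lower than in PBS local skin, against 0.447% of 7614 genes. The difference of TSLP minus PBS local was -3.25 for Ankrd1, the lowest of all genes compared, and the TSLP signal was 9.96% of the PBS local signal. The second Ankrd1 probe set gave -3.31. For Tnfrsf12a, the TWEAK receptor, the difference was -2.02 and the TSLP signal was 23.1% of PBS local, while its second probe set gave -1.61. Xirp1 differed by -1.88, Alpk2 by -1.65 and Ankrd2 by -1.38. Csrp3 did not reach the 2-fold limit, at -0.70, and its TSLP signal was 61.5% of PBS local. Smtnl1 differed by -0.02, with a TSLP signal of 98.4% of PBS local. The median over the 7 genes was -1.65 under TSLP, against -0.01 over all genes. Both of the single-array comparisons have no replicate check.

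**Figure D2:**
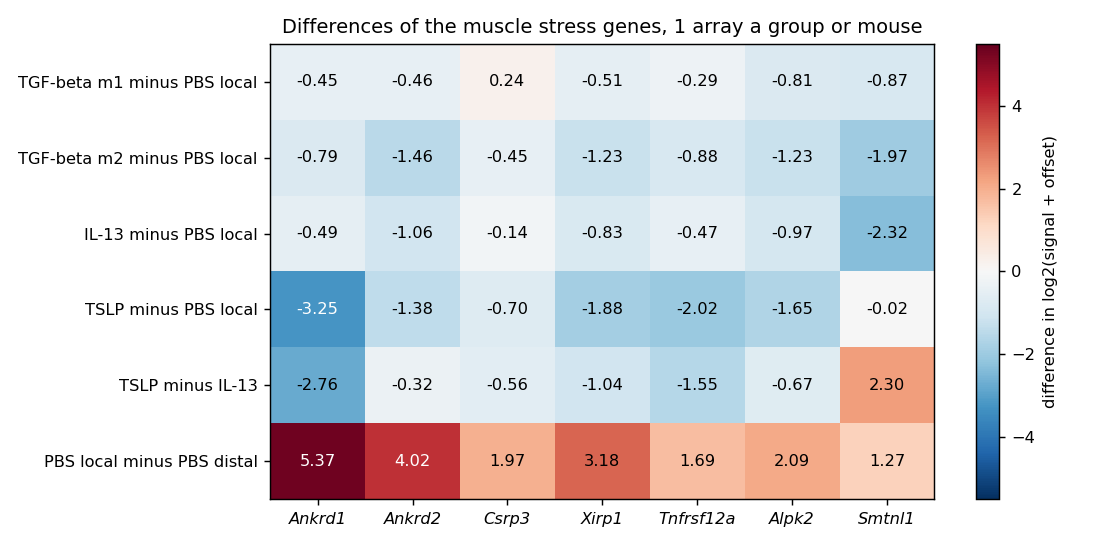
Heat map of the difference in log2(signal + 27.4), printed and coloured in each cell, for the 7 stress genes (columns) in 6 differences between arrays (rows). Ankrd1 has both the lowest TSLP value (-3.25) and the highest outlet value (5.37), and Smtnl1 is lowest under IL-13 (-2.32).

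TSLP was also set against IL-13, a comparison that leaves out the PBS local array. At least 2-fold lower under TSLP than under IL-13 were 3 of the 7 genes, Ankrd1, Tnfrsf12a and Xirp1, against 0.556% of 7558 genes. The difference of TSLP minus IL-13 was -2.76 for Ankrd1, -1.55 for Tnfrsf12a and -1.04 for Xirp1. The second Tnfrsf12a probe set gave -0.95, just short of the limit, and Xirp1 was at -0.81 when 165 was added instead (a higher offset), which leaves 2 of the 7. Alpk2 (-0.67), Csrp3 (-0.56) and Ankrd2 (-0.32) were lower by less, and the Csrp3 value was -0.27 after quantile normalization. Smtnl1 differed the other way by 2.30 and was the 1 gene of the 7 at least 2-fold higher under TSLP, against 0.82% of all genes. The median over the 7 was -0.67, against 0.06 over all genes. The IL-13 and TSLP differences of these genes from PBS local had entered the choice of the list, so this comparison is not independent of that choice.

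**Figure D3:**
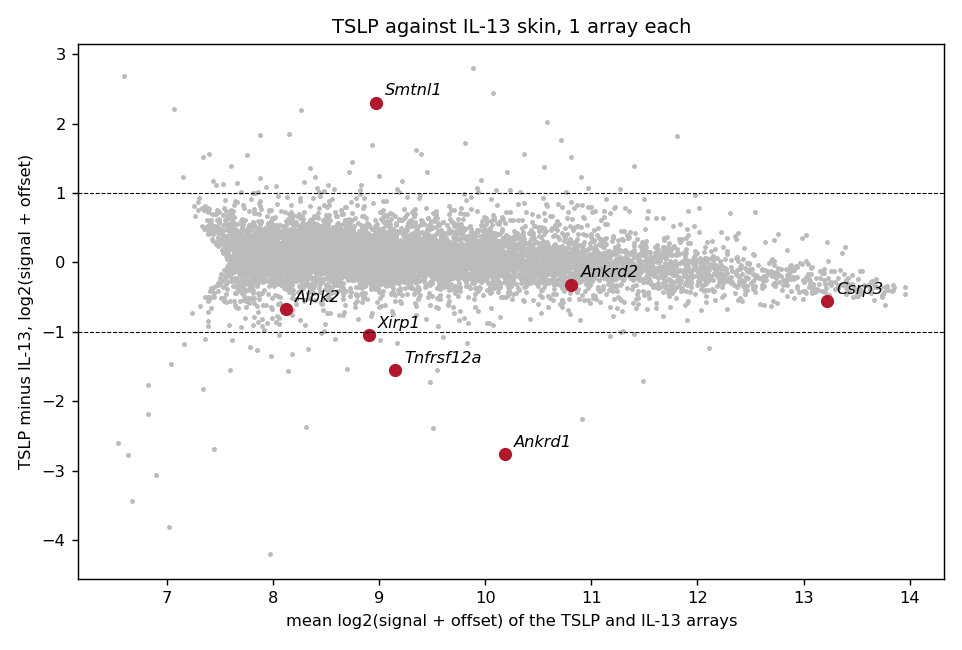
TSLP minus IL-13 in log2(signal + 27.4) (vertical axis) against the mean of both arrays on that scale (horizontal axis), with the 7 stress genes in red, all other compared genes in grey and dashed lines at 2-fold. Smtnl1 lies above the upper line at 2.30, and Ankrd1 lies lowest of the 7 at -2.76.

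At the pump outlet, PBS local skin was set against PBS distal skin, in a pair of single arrays. All 7 genes were at least 2-fold higher in PBS local skin, against 3.51% of 7617 genes. The difference of PBS local minus PBS distal was 5.37 for Ankrd1, and its second probe set gave 5.35. The PBS distal signal behind it, 75.7, is dim, and the Ankrd1 difference was 4.19 with the higher offset and 5.69 with the lower. Ankrd2 differed by 4.02, with a signal ratio of 18.1, and Xirp1 by 3.18 (2.32 with the higher offset). Alpk2 differed by 2.09 (1.47 with the higher offset), Csrp3 by 1.97 and Tnfrsf12a by 1.69, the second Tnfrsf12a probe set giving 1.72. Smtnl1 had the smallest difference of the 7, at 1.27 with a ratio of 2.50. The median over the 7 was 2.09, against 0.01 over all genes. Ankrd1, Xirp1 and Alpk2 were below 165 in PBS distal skin, so their differences rest on a dim value on one side and have no exact fold.

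The cytokine arrays differed in how near they came to PBS distal skin. Under TSLP, Ankrd1 was still 2.12 above PBS distal on the log2 scale and Ankrd2 2.65 above it, whereas Tnfrsf12a was at -0.33 by its brighter probe set and at 0.11 by the other. Alpk2 was 0.44 above PBS distal under TSLP and 1.12 above it under IL-13. Smtnl1 was 1.25 above PBS distal under TSLP, but at -0.15 in TGF-beta skin and at -1.05 under IL-13. In TGF-beta skin the mean Ankrd1 difference from PBS distal was 4.74, near the 4.88 of IL-13 skin.

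The 7 genes were then set beside other muscle genes, in lists chosen with earlier results of these data known. Of 23 genes of the mature fibre, such as myosins, troponins and creatine kinase, 1 was at least 2-fold higher in PBS local than in PBS distal skin, Myh2 (1.78), a fast myosin heavy chain. At least 2-fold lower were 3, namely Myh4 (-2.78), another fast myosin heavy chain, Pygm (-1.21), the muscle glycogen phosphorylase, and Pvalb (-1.02), parvalbumin, which was named after its value was seen. Cacna1s, the calcium channel of the muscle T-tubule, differed by 0.83. Their median was -0.14, and all 7 stress genes lay above it, 5 of them above the highest mature fibre gene. The stress genes had been chosen in part for this difference, so nothing is read from their place above the list. Of 17 titin I-band and Z-disc partners on the array, 16 passed the filter. Of these 16, 7 were at least 2-fold higher in PBS local skin, with a median of 0.75. Myoz2, a calcineurin-binding Z-disc protein, differed by 2.98 and Flnc, the muscle filamin, by 2.70. Ttn, the titin gene itself, and Capn3, the muscle calpain that binds titin, each differed by 0.07. Of 20 genes of regenerating or embryonic muscle on the array, 11 passed the filter. Of these 11, 9 were at least 2-fold higher in PBS local skin, with a median of 1.90. Myh3, the embryonic myosin heavy chain, differed by 4.60 and Tnni1, the slow troponin I, by 4.08, whereas Actc1, the cardiac actin of developing muscle, differed by 0.69 and Sln, sarcolipin, by -0.89. The PBS distal signals of Myh3 (42.7) and Tnni1 (3.35) were below 165, so these genes passed the filter by PBS local skin alone. Such a filter favours genes high in PBS local skin, so the count and median of the regenerating list lean upward.

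Under TSLP, the medians of these lists lay nearer to PBS local skin than that of the stress genes. The stress genes had been chosen in part for low values under TSLP and IL-13. Their place below the lists is therefore not independent of that choice, and nothing is read from it. The median of TSLP minus PBS local was -0.25 for the mature fibre, -0.25 for the titin partners and -0.59 for the regenerating genes, beside -1.65 for the stress genes. At least 2-fold lower under TSLP were 1 of 23 mature fibre genes (Actn3, the fast-fibre alpha-actinin, -1.09), 1 of 16 titin partners (Flnc, -1.22) and 3 of 11 regenerating genes. The last were Chrna1, the acetylcholine receptor alpha subunit (-1.76), Myl4, the embryonic myosin light chain (-1.58), and Tnni1 (-1.07). Of the 7 stress genes, 5 lay below the lowest mature fibre gene under TSLP, Csrp3 and Smtnl1 being the others. Under IL-13 the mature fibre median was itself -0.53, and 4 of the 7 stress genes lay below it. Relative to that median, Smtnl1 differed by -1.79 under IL-13 and Ankrd1 by 0.05, while under TSLP Ankrd1 differed by -2.99 and Smtnl1 by 0.23. In TGF-beta mouse 2 the mature fibre median was -0.65, and in mouse 1 it was -0.13. The part of muscle content in the differences of the stress genes was not tested beyond these values.

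**Figure D4:**
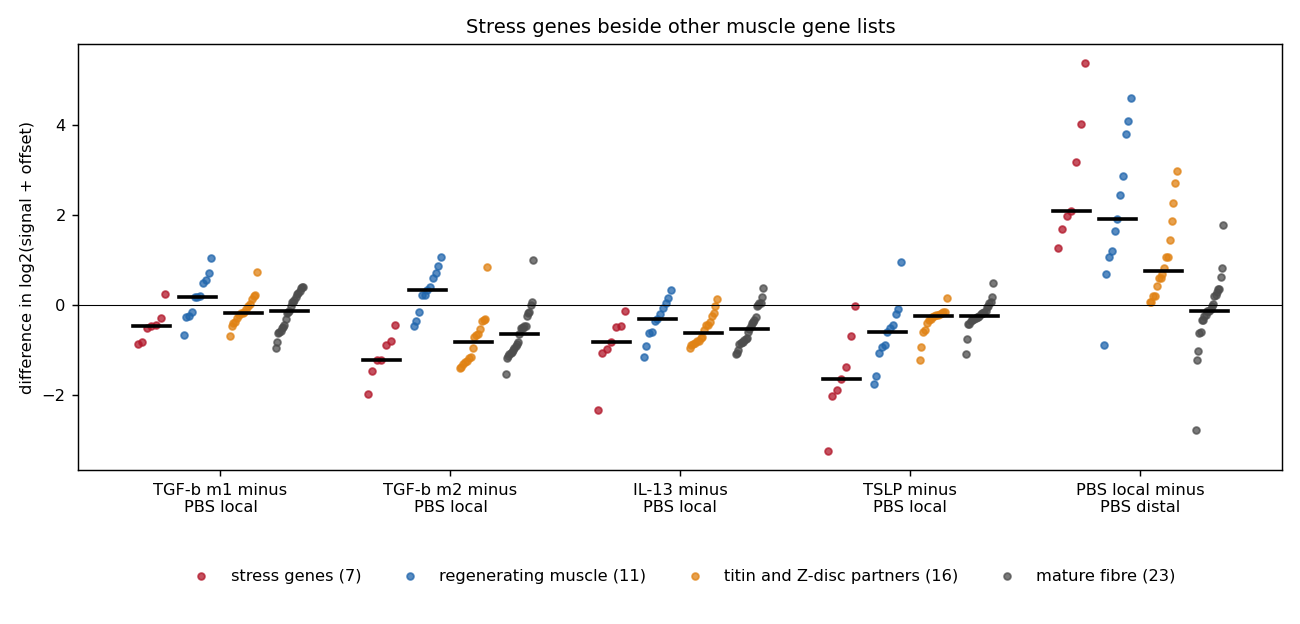
Difference in log2(signal + 27.4) for the 7 stress genes, 11 regenerating muscle genes, 16 titin and Z-disc partners and 23 mature fibre genes. The 5 groups along the horizontal axis are differences between arrays, each point is 1 gene and each bar the list's median. In TSLP minus PBS local the stress genes' median is -1.65 and the mature fibre median -0.25. The stress genes were chosen in part by these differences.

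Other cell types of the skin also differed between the arrays. Summed neutrophil marker signals were 7024 and 6997 in the TGF-beta mice, 11043 under IL-13, 6103 under TSLP, 4240 in PBS local skin and 885 in PBS distal skin. This order is not the order of Ankrd1, whose TSLP value was the lowest at the outlet. Summed endothelial marker signals were 3394 and 2106 in the TGF-beta mice, 1755 under IL-13, 2698 under TSLP, 2240 in PBS local skin and 1126 in PBS distal skin, so the PBS distal array was lowest for these markers as for Ankrd1. Summed dermal fibroblast signals were 53346.5 and 43874 in the TGF-beta mice, 48414 under IL-13, 37198 under TSLP, 44059 in PBS local skin and 37725 in PBS distal skin. The TSLP and PBS distal arrays thus had the lowest fibroblast sums, as they had the lowest Ankrd1 values, though the fibroblast sums differed far less between arrays. The fibroblast median was -0.30 in TSLP minus PBS local and -0.46 in TSLP minus IL-13. Not every marker followed the sums. Named after their values were seen, Dcn was at 13246 in PBS distal and 13055 in PBS local skin, and Pdgfra at 1996 in TGF-beta mouse 1 and 2031 under TSLP. Summed macrophage signals were lowest in the same arrays, at 18904 under TSLP and 14620 in PBS distal skin, against 19402 in PBS local skin. The macrophage median was only -0.02 in TSLP minus PBS local. Csf1r and Mrc1 were lower under TSLP than in PBS local skin, Cd68 was nearly equal and Adgre1 was higher (1706 against 1365). Summed keratinocyte signals were also lowest under TSLP (45822) but highest in PBS distal skin (70777). The summed adipocyte signals were highest in PBS distal skin too (20528.5). Summed smooth muscle signals lay between 7848 and 11763 over the 6 arrays. The difference of PBS local minus PBS distal was 1.72 for Synpo2, an actin-binding protein of smooth and striated muscle, 0.31 for Acta2, the smooth muscle actin, and -0.07 for Actg2 and for Mylk. The part of these cell types in the values of the stress genes was not tested.

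Relatives and known partners of the 7 genes were counted in 5 comparisons, namely TGF-beta, IL-13 and TSLP minus PBS local, TSLP minus IL-13 and PBS local minus PBS distal. Of the paralogs on the array, 4 passed the filter, and 0 of these reached 2-fold in any of the 5. The difference of PBS local minus PBS distal was 0.89 for Alpk3, the relative of Alpk2, 0.59 for Csrp2 and -0.05 for Csrp1, relatives of Csrp3, and 0.30 for Smtn, the smoothelin gene related to Smtnl1. In the TWEAK and Fn14 pathway, 0 of the genes that passed the filter reached 2-fold in any of the 5, and the median of TSLP minus PBS local was 0.32, whereas the receptor gene Tnfrsf12a was at -2.02. Map3k14, the kinase of the non-canonical NF-kappaB pathway, differed by 0.89 between PBS local and PBS distal, and Nfkb2, its target, by 0.72. Nfkbia, the NF-kappaB inhibitor, differed by -0.08 and Birc2, a ubiquitin ligase bound to the receptor's adaptors, by 0.05. Among 14 targets and factors of the stretch-responsive YAP, TEAD and SRF pathways, 1 was at least 2-fold higher in PBS local than in PBS distal skin (Ccn1, a matricellular protein, 1.40), with a median of 0.04, and 0 were at least 2-fold lower under TSLP. Fos, an immediate early transcription factor, differed by 0.89, Amotl2, an angiomotin-like protein, by -0.19 and Ajuba, a LIM protein of the Hippo pathway, by -0.79. Of 9 denervation and atrophy genes on the array, 7 passed the filter, and 4 of the 7 were at least 2-fold higher in PBS local skin. These were Myog, a muscle transcription factor (1.64), Chrna1 (1.20) and, named after their values were seen, Ncam1, a cell adhesion molecule (1.07), and Gadd45a, a stress-induced gene (1.02). Fbxo32, the ubiquitin ligase atrogin-1, differed by -1.35 there and by 1.25 in TSLP minus PBS local. Mylk, the myosin light chain kinase, and Ppp1cb, a catalytic subunit of myosin phosphatase, differed by -0.07 and -0.63 between PBS local and PBS distal. In TGF-beta skin, 0 genes of any of these lists passed limma's adjusted threshold.

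Among themselves, the 6 genes other than Smtnl1 varied together over the 6 arrays. Pearson's r in log2 over the 15 pairs lay between 0.712 and 0.967, and between 0.624 and 0.977 over the 5 outlet arrays alone. In the 6 pairs with Smtnl1, r lay between -0.124 and 0.275, and between -0.360 and 0.464 over the 5 outlet arrays. Without the TSLP and PBS distal arrays, r was 0.818 for Smtnl1 with Ankrd1 and 0.820 with Tnfrsf12a, so the low values of these pairs rest on those arrays. For its other partners, the 2 arrays farthest from the partner's median were PBS distal and either PBS local or TGF-beta mouse 1. Without those, r was 0.086 with Ankrd2, -0.137 with Csrp3, -0.496 with Xirp1 and -0.538 with Alpk2. For Ankrd1 with Csrp3, r was 0.946 over 6 arrays and 0.582 without TSLP and PBS distal. These are descriptions over 6 arrays of tissue that share one PBS local and one PBS distal sample, and the genes were chosen for differences among them.

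The genes most like Ankrd1 were sought among 246 genes whose highest and lowest arrays differed by at least 2 on the log2 scale. Uchl1, a ubiquitin hydrolase of neurons, came first with r = 0.982 over 6 arrays and r = 0.948 over the 5 outlet arrays. Its signals were 201.7 and 145.6 in the TGF-beta mice, 152.9 under IL-13, 76.8 under TSLP, 234.2 in PBS local skin and 12.0 in PBS distal skin. Every array held the same rank for Uchl1 as for Ankrd1. Uchl1 was below 165 in TGF-beta mouse 2, under IL-13, under TSLP and in PBS distal skin, so its ranks rest in part on dim values. Next came Myl4 with r = 0.959, Col8a1, a short-chain collagen, with r = 0.954, Igfbp2, a binding protein of insulin-like growth factors, with r = 0.946, and Mustn1, a nuclear protein of muscle and skeletal tissue, with r = 0.946. Without the PBS distal and TSLP arrays, which lie farthest from the Ankrd1 median, r was 0.888 for Uchl1, 0.975 for Igfbp2 and 0.882 for Mustn1. It was 0.279 for Col8a1 and -0.880 for Myl4, so the likeness of these genes rests on those arrays.

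Smtnl1 was most like Ckmt2, the mitochondrial creatine kinase of striated muscle, with r = 0.852 over 6 arrays and r = 0.893 without the IL-13 and PBS local arrays. Ckmt2 signals were 1462 and 599 in the TGF-beta mice, 730 under IL-13, 3069 under TSLP, 1751 in PBS local skin and 2016 in PBS distal skin. Like Smtnl1, it was low in TGF-beta mouse 2 and under IL-13, but its TSLP value stood above PBS local. Igha, an immunoglobulin heavy chain gene, followed with r = 0.788 and Apobec2, a muscle member of the cytidine deaminase family, with r = 0.780. Apobec2 signals were 4323 and 1075 in the TGF-beta mice, 1878 under IL-13, 6701 under TSLP, 4807 in PBS local skin and 6397 in PBS distal skin. Tnfrsf12a was most like Gm13889 (r = 0.835), Uchl1 (r = 0.821) and Lmcd1, a LIM domain protein of muscle (r = 0.794). No gene reached r = 0.95 with Smtnl1 or with Tnfrsf12a, whereas 3 did with Ankrd1.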

How the data were processed

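Skin RNA of 6 arrays was measured as 1 intensity per probe set. Per the submitters' processing notes the deposited intensity values come from MAS5 (version not given in the sources used here). Trimmed means (2% left out at each end) of the deposited arrays lay between 500.16 and 500.2. Each array was scaled to their mean, and values were taken as log2(signal + 27.4), the offset being the 25th percentile (lower offset 6.21, the 10th percentile; higher offset 165, the median). Detection calls were not used, and precision is limited by the number of arrays.

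Of 22690 probe sets, 64 are AFFX controls, 20380 have 1 gene symbol in the platform annotation, 691 have several symbols and 1555 have none here. Of the symbols, 20351 were matched by gene number to RefSeq (GRCm38.p6), which also gave the promoters. Where a gene had several probe sets, that of highest mean log2 value was used, giving 12393 genes.

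The 7 genes and all lists were chosen with earlier results of these data known. From each muscle or pathway list, but not from the markers of other cell types, the text names the genes with the 2 largest and 2 smallest PBS local minus PBS distal differences, and those at least 2-fold lower under TSLP than in PBS local skin. It also names the genes outside the 7 that were most like Ankrd1 (5), Smtnl1 (3) and Tnfrsf12a (3) by Pearson's r.

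TGF-beta and PBS local were compared in limma 3.58.1 under R 4.3.3 (lmFit, eBayes with trend, all 6 arrays in 5 groups, Benjamini-Hochberg threshold 0.05). The variance behind its p-values combines the spread between the 2 TGF-beta mice (1 residual degree of freedom) with a trend over all genes (3.13 prior degrees of freedom). The single PBS local array adds no spread of its own. The step was tested on simulated data. Other comparisons have 1 array a group and no test. Alternatives were other offsets, quantile normalization, other filters, the mean of all probe sets, no trend, robust eBayes and leaving out each TGF-beta mouse.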

Additional observations from a re-analysis of the deposited data

How the results depend on the processing

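Of 235 values of single genes under alternative settings, 227 moved by less than the spread between the TGF-beta mice or kept their side of the threshold, 7 moved by more and 1 had the opposite sign. The last was Csrp3 in TGF-beta minus PBS local, at -0.45 without replicate 1 and 0.24 without replicate 2, that is with a single TGF-beta mouse. The 7 that moved belong to Ankrd1, Xirp1 and Alpk2 under other offsets, and all kept their direction. Many of the 227 could not have been counted as moved, so that count does not measure stability. Other filters leave a gene's difference unchanged, and averaging probe sets can alter only Ankrd1 and Tnfrsf12a. Leaving out 1 of 2 mice always moves their mean by less than their spread. The limma values kept their side because no gene passed in any setting. Of the 7 stress genes, 4 were at least 2-fold higher in PBS local than in PBS distal skin where every compared array had to reach 165, because Ankrd1, Xirp1 and Alpk2 were then not compared. In limma, 0 genes passed in TGF-beta minus PBS local under any of 9 settings, with 303 to 475 genes at an unadjusted p under 0.05 and a smallest adjusted p between 0.103 (quantile normalization) and 0.899. Without either TGF-beta mouse no residual degrees of freedom remain, so that count has no value. No paired analysis was possible, because all groups but TGF-beta have 1 array and the labels do not state if 1 animal gave both PBS pieces. A single array in 4 of 5 groups and dim distal signals of Ankrd1, Xirp1 and Alpk2 limit every value.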
